A study of Mus musculus with 4 samples.

Results

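The aminoacyl-tRNA synthetases and their partner enzymes were examined in the mouse mammary tumour line 4T1, in wild-type (WT) cells and in cells with a Dhodh knockout (DHODH KO). The members were the genes whose pathway annotation in the deposited table holds the exact entry "Aminoacyl-tRNA biosynthesis", which gave 44 of the 16695 genes listed. They divide into 21 cytosolic synthetase genes, 17 genes ending in 2 that encode mitochondrial synthetases, and 6 genes for enzymes that act on amino acids already attached to tRNA. DHODH is the mitochondrial enzyme that makes orotate for pyrimidine synthesis, and the question was how its loss changes RNA levels. Each genotype had 2 libraries, and no treatment or time point is labelled. The labels do not say whether the KO cells were 1 clone, nor whether separate cultures were used, so a p-value here covers the spread between libraries, which may be technical.

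A synthetase joins an amino acid to the tRNA that carries its codon's partner, at the cost of ATP. Mammalian cells keep one set of these enzymes for the ribosomes of the cytosol and another, also encoded in the nucleus, for the ribosomes inside mitochondria. Kars and Gars, counted here as cytosolic, serve both compartments. Several cytosolic synthetases sit together in a large multisynthetase complex, and uncharged tRNA activates the kinase GCN2, which raises translation of the transcription factor ATF4. Several cytosolic synthetase genes are known ATF4 targets.

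Whole reads recovered from the steps of the FPKM values summed to between 28024707 and 30869972 per library. Levels are in FPKM, reads scaled to gene length and library size, and are given for each library (n = 2 per genotype, replicate 1 first). A log2 change is the KO mean minus the WT mean of log2(FPKM + 1), with its SE, and is smaller than the true change in low genes. Adjusted p-values are Benjamini-Hochberg values over the 10170 genes tested with limma-trend, with a gene called below 0.05. Dhodh itself measured 10.9 and 10.3 FPKM in the WT libraries and 9.67 and 8.69 FPKM in the KO libraries (log2 change -0.19, adjusted p = 0.0425), and this call was lost without either WT library or without DHODH KO replicate 2 (adjusted p = 0.170, 0.0597 and 0.200), as well as with no filter (0.119), after rescaling to TPM (0.0532) and without the limma trend (0.0535), over a range from 0.0186 in 12 alternatives. RNA summed over a gene does not show a small insertion or deletion. In bulk RNA, fewer cells of a type and less RNA per cell cannot be told apart. The epithelial genes Krt7, Krt8, Krt18, Krt19, Epcam and Cdh1 were expressed in all libraries, summing to 1933 to 1957 FPKM, although 5 of the 6 were called, Krt19 (2.06-fold) and Epcam (1.44-fold) higher and Krt8, Krt18 and Cdh1 lower in KO. DHODH KO replicate 2 stood apart in that 6 heart muscle genes, Myh6, Tnni3, Actc1, Myl2, Myl3 and Nppa, were at 0 in the other 3 libraries and summed to 82.8 FPKM in it, while the other listed marker, Tnnt2, was between 188 and 208 FPKM throughout. Fibroblast and endothelial markers summed to 5.73 FPKM in that library against at most 0.353 FPKM in the others. Among immune markers the macrophage gene Lyz2 was at 3.51 FPKM in it and at most 0.226 FPKM elsewhere, while Ptprc, Cd3e and Itgam were highest in other libraries. The part of these transcripts in the results was not tested, but values without that library are given wherever they change a call.

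The pathway moved in both directions. Of 43 members that passed the filter of a mean of at least 1 FPKM, 8 rose and 17 fell in KO, which makes 58.1% called, against 64.7% of all 10170 genes tested. The share that rose was 18.6%, where 35.6% of all genes rose, and the share that fell was 39.5%, where 29.1% of all genes fell. The median log2 change was -0.10 over the members and 0.04 over all genes tested. Of the 43 members 7 were called with a log2 change of at least 0.5 either way, 2 up and 5 down. Of all 10170 genes 2174 (21.4%) were, 1299 up and 875 down. As 6576 of all genes were called, most called genes had smaller changes, and this was not particular to the members. The KO and WT values did not overlap for 32 members of the 43, 11 higher and 21 lower in KO, where 83.4% of all genes did not overlap. Fars2, for mitochondrial phenylalanine charging, was the member below the filter, at 0.883 and 0.869 FPKM in WT and 0.807 and 0.980 FPKM in KO.

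**Figure D1:**
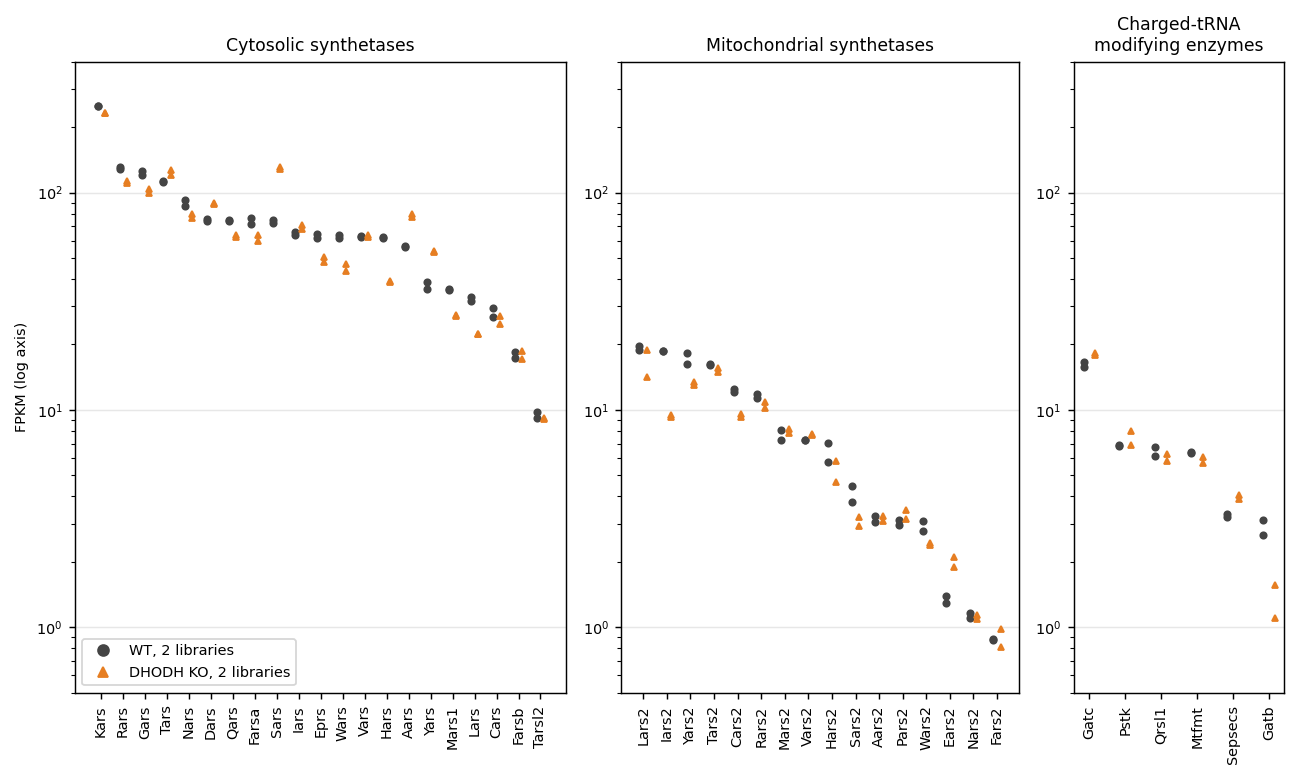
FPKM of 43 members in each library on a log axis, ordered by WT level within each group of enzymes; dark circles are the 2 WT libraries and orange triangles the 2 DHODH KO libraries. The cytosolic genes run from 9.48 to 250.02 FPKM in WT and the mitochondrial ones from 0.876 to 19.2 FPKM, and Sars, Aars, Yars, Hars and Iars2 show the KO points well away from the WT points.

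Cytosolic synthetase RNA was more abundant per length than mitochondrial synthetase RNA. Mean WT levels ran from 9.48 FPKM for Tarsl2, a second cytosolic threonyl-tRNA synthetase, to 250.02 FPKM for Kars, the lysyl-tRNA synthetase that serves both compartments, with a median of 63.4 FPKM. The mitochondrial genes ran from 0.876 FPKM for Fars2 to 19.2 FPKM for Lars2, with a median of 7.27 FPKM. After Kars, the cytosolic order in WT was Rars, Gars and Tars at 130, 123 and 113 FPKM. The WT libraries of Rars, Gars and Tars did not overlap. The gene length that the value of 1 read implies was between 0.249 and 4.05 times what the longest GENCODE transcript of each member would give, scaled to the median of all genes, so levels of different genes are comparable only within such factors. Comparisons of 1 gene between genotypes are free of this. The recovered reads are the smallest whole numbers that match. Where the counts of a gene share a factor, its reads and its implied length come out too low. Whether this lies behind the lowest ratios was not tested. Depth was ample, with 1019 to 20690 reads for a cytosolic gene and 252 to 4228 reads for a mitochondrial gene in a library.

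Promoters are shown for the cytosolic members that carry TGATGNAA, the core of the element bound by ATF4 with C/EBP factors. They include 3 of the 5 cytosolic genes that rose, as well as Gars, which fell, and Iars, which was not called. RefSeq windows on GRCm38.p6, from 250 bases before to 50 after a start site, were found for 32 of the 44 members and searched on both strands. The letters TGATGNAA were in the windows of 5 of those 32 members (15.6%), all 5 among the 14 cytosolic genes with a window and none among the 14 mitochondrial ones, against 4.51% of 27025 genes. All 5 cytosolic genes that rose had a window, and those of Sars and Dars hold no match, whereas Rars, Lars, Hars, Wars and Nars, 5 of the 11 that fell, had no window. The stretches below run from 120 bases before to 50 after the start, 5′ to 3′ on the strand of the gene, with the match in capitals. Matches on the opposite strand appear as the reverse complement.
Aars, chr8:111033722-111033891, plus strand: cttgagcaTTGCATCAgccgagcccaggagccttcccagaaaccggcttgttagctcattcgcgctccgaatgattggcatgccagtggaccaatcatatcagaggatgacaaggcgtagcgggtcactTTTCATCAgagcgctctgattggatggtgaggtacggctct
Yars, chr4:129189783-129189952, plus strand: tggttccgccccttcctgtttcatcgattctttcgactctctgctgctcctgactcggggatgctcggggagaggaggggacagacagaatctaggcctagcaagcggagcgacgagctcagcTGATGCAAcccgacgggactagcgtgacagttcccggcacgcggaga
Tars, chr15:11399609-11399778, minus strand: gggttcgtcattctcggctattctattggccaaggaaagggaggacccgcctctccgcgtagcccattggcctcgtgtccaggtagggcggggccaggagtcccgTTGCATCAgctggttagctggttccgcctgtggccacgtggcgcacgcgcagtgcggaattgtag
Iars, chr13:49682010-49682179, plus strand: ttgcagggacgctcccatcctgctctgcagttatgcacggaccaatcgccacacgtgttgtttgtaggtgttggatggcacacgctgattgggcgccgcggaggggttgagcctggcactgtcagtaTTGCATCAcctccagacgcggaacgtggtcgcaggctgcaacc
Gars, chr6:55037881-55038050, plus strand: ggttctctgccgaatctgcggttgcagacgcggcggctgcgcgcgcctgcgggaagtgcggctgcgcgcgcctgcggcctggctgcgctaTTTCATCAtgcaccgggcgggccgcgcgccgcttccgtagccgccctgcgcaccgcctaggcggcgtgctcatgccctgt

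The 5 genes differ in where the match lies and in how their RNA moved. Aars holds it 112 bases before the start and again from base 10 after it, Yars from base 4 after the start, Iars from base 8 after it, Tars 15 bases before and Gars 30 bases before. Aars, Yars and Tars rose, Iars was not called, and Gars fell. The E-box CACGTG, the site of MYC and related factors, was in the windows of 5 of the 32 members (15.6%), Aars, Iars, Tars, Farsb and Ears2, against 8.09% of all genes, and it does not overlap the other motif in Aars, Iars or Tars. These matches describe letters, not binding, and their part in the RNA changes was not tested.

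Of the 21 cytosolic synthetases 5 rose and 11 fell, so 76.2% were called, 23.8% up and 52.4% down, where 64.7% of all genes were called, 35.6% up and 29.1% down. Sars, which charges tRNA with serine and also makes the precursor of selenocysteyl-tRNA, rose most. It measured 72.4 and 75.1 FPKM in WT and 131 and 128 FPKM in KO, 1.76-fold higher (log2 change 0.81 ± 0.037, adjusted p = 5e-06). Both KO libraries lay far above both WT libraries. Yars, the tyrosyl-tRNA synthetase, measured 35.9 and 38.6 FPKM in WT and 53.8 and 53.2 FPKM in KO, a 1.44-fold rise (log2 change 0.51 ± 0.047, adjusted p = 8.8e-05). Aars, which charges alanine, measured 56.1 and 56.9 FPKM in WT and 79.8 and 76.9 FPKM in KO, a 1.39-fold rise (log2 change 0.46 ± 0.038, adjusted p = 5.6e-05). In both genes the groups were well apart.

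Smaller rises were seen for Dars and Tars. Dars, for aspartate and a member of the multisynthetase complex, measured 74.0 and 75.4 FPKM in WT and 88.3 and 89.6 FPKM in KO (log2 change 0.25 ± 0.035, adjusted p = 0.0007). Tars, for threonine, measured 112 and 113 FPKM in WT and 127 and 121 FPKM in KO (log2 change 0.13 ± 0.038, adjusted p = 0.0186). The Tars call was lost without WT replicate 1 (adjusted p = 0.0907), WT replicate 2 (0.0706) or DHODH KO replicate 1 (0.0545), after median-ratio scaling (0.111), with no filter (0.0569) and without the limma trend (0.0717), with adjusted p between 0.00308 and 0.111 across the 12 alternatives. Iars, for isoleucine, measured 66.0 and 64.1 FPKM in WT and 71.1 and 68.1 FPKM in KO. It was not called (adjusted p = 0.0713), although its values did not overlap, and it passed without DHODH KO replicate 2 (log2 change 0.13, adjusted p = 0.0266; range 0.0266 to 0.374).

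Hars fell most among the cytosolic genes. This histidyl-tRNA synthetase gene measured 61.6 and 62.3 FPKM in WT and 39.3 and 38.9 FPKM in KO, 63.1% of the WT mean (log2 change -0.65 ± 0.037, adjusted p = 1.2e-05). Lars, which charges leucine and is known to serve as a leucine sensor for mTORC1, measured 31.7 and 33.2 FPKM in WT and 22.3 and 22.4 FPKM in KO, 69.0% of WT (log2 change -0.52 ± 0.045, adjusted p = 7.1e-05). Wars, for tryptophan and known as an interferon-inducible gene, measured 63.6 and 62.0 FPKM in WT and 46.7 and 43.6 FPKM in KO, 71.9% of WT (log2 change -0.47 ± 0.046, adjusted p = 0.00012). For these genes every KO library was lower than every WT library.

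Mars1 and Eprs fell next. Mars1, which charges both initiator and elongator tRNA with methionine, measured 35.8 and 36.0 FPKM in WT and 27.1 and 27.3 FPKM in KO (log2 change -0.39 ± 0.041, adjusted p = 0.00016). Eprs, a fused enzyme for glutamate and proline, measured 64.6 and 62.1 FPKM in WT and 50.5 and 47.8 FPKM in KO (log2 change -0.36 ± 0.044, adjusted p = 0.00035). Neither gene had overlapping groups.

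Gars, Farsa, Qars, Rars and Nars fell, with log2 changes of -0.26, -0.26, -0.23, -0.21 and -0.20 and adjusted p-values from 0.00088 to 0.00588. Gars, for glycine, measured 120 and 125 FPKM in WT and 100.1 and 103.8 FPKM in KO. Farsa, the alpha subunit of the phenylalanyl-tRNA synthetase, measured 71.6 and 76.4 FPKM in WT and 59.6 and 64.0 FPKM in KO, whereas Farsb, the beta subunit of the same tetramer, measured 17.3 and 18.5 FPKM in WT and 18.6 and 17.1 FPKM in KO. Thus the Farsa groups were apart and the Farsb groups overlapped (adjusted p = 0.989), and the difference between the subunits was not tested. Qars, for glutamine, measured 74.3 and 74.4 FPKM in WT and 62.3 and 63.9 FPKM in KO. Rars, for arginine, measured 129 and 131 FPKM in WT and 111 and 113 FPKM in KO, and Nars, for asparagine, 87.1 and 92.4 FPKM in WT and 79.9 and 76.0 FPKM in KO. None of these groups overlapped.

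Kars, the most abundant member, measured 250.2 and 249.8 FPKM in WT and 232.8 and 233.4 FPKM in KO (log2 change -0.10 ± 0.031, adjusted p = 0.0234). Its values were apart but the change was small, and the call was lost without WT replicate 1 (adjusted p = 0.136), with WT replicate 2 left out (0.128) and with no limma trend (0.108), over a range from 0.0033 to 0.136. Cars, for cysteine, measured 26.8 and 29.6 FPKM in WT and 27.1 and 24.9 FPKM in KO and was not called (adjusted p = 0.151). Vars, for valine, with 63.1 and 62.4 FPKM in WT and 62.3 and 63.5 FPKM in KO, and Tarsl2, with 9.75 and 9.21 FPKM in WT and 9.23 and 9.09 FPKM in KO, were not called either.

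**Figure D2:**
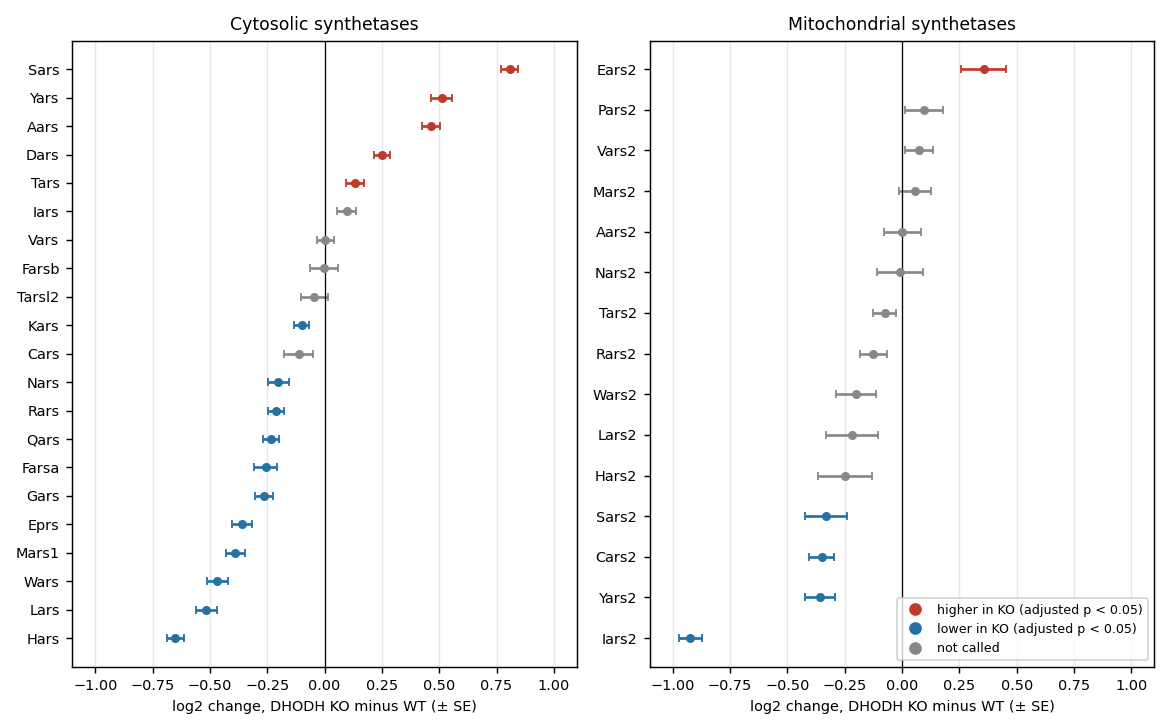
Log2 change (KO minus WT) of each plotted cytosolic (left, 21 genes) and mitochondrial (right, 15 genes) synthetase; bars are ± SE and colours mark genes called higher, lower or not called. Changes run from -0.65 for Hars to 0.81 for Sars on the left and from -0.92 for Iars2 to 0.35 for Ears2 on the right.

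The cytosolic set can be divided by membership of the multisynthetase complex. Of its 8 enzymes, Eprs, Kars, Lars, Mars1, Qars and Rars fell, Dars rose and Iars was not called, with a median log2 change of -0.22. Of the 13 synthetases outside the complex, 4 rose and 5 fell, with a median of -0.04. Of all genes 29.1% fell and 35.6% rose, and the enzymes inside and outside the complex were not tested against each other. The summed level of all cytosolic synthetases barely moved, at 1523 and 1548 FPKM in WT and 1500 and 1485 FPKM in KO, a KO mean of 97.2% of the WT mean. Without Sars the KO sum was 93.2% of the WT sum. By catalytic fold, 1 of 9 class I enzymes rose and 5 fell, and 4 of 11 class II enzymes rose and 5 fell, with Eprs, which holds both folds, left out.

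Of the 3 scaffold genes of the complex 2 rose and 0 fell by limma-trend, where 35.6% of all genes rose. Eef1e1, which encodes the scaffold protein AIMP3, measured 62.4 and 62.6 FPKM in WT and 94.6 and 102 FPKM in KO, 1.58-fold higher (log2 change 0.65 ± 0.046, adjusted p = 2.8e-05). Aimp1 measured 71.6 and 74.6 FPKM in WT and 79.6 and 84.1 FPKM in KO and was called (adjusted p = 0.0134), but not without WT replicate 1 (0.0916), with no filter (0.0571) or after median-ratio scaling (0.0534), over a range from 0.00538 to 0.0916. Aimp2 measured 81.8 and 77.1 FPKM in WT and 80.7 and 86.0 FPKM in KO, so its groups overlapped (adjusted p = 0.240). The complex enzymes were not tested against the scaffolds.

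Of the 16 mitochondrial synthetases tested, 5 fell and 1 rose, so 37.5% were called, 31.2% down and 6.25% up, beside 64.7%, 29.1% and 35.6% of all genes, and the median log2 change was -0.16. Iars2, for isoleucine, had the lowest log2 change of the mitochondrial synthetases. It measured 18.7 FPKM in both WT libraries and 9.24 and 9.52 FPKM in the KO libraries, 50.2% of WT (log2 change -0.92 ± 0.051, adjusted p = 9.8e-06). The KO libraries were far below the WT libraries.

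Cars2, Yars2 and Sars2 fell by less. Cars2, for cysteine and known also to make persulfides, measured 12.4 and 12.0 FPKM in WT and 9.24 and 9.53 FPKM in KO (log2 change -0.35 ± 0.056, adjusted p = 0.00119). Yars2, for tyrosine, measured 18.3 and 16.2 FPKM in WT and 13.0 and 13.4 FPKM in KO (log2 change -0.36 ± 0.066, adjusted p = 0.00242). Sars2, for serine, measured 4.47 and 3.79 FPKM in WT and 2.93 and 3.20 FPKM in KO (log2 change -0.33 ± 0.093, adjusted p = 0.0165). None of the 3 overlapped, but the Sars2 call was lost without WT replicate 1 (adjusted p = 0.106), with DHODH KO replicate 1 left out (0.0650) and with no filter (0.0832), over a range from 0.00904 to 0.106.

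Ears2, the mitochondrial glutamyl-tRNA synthetase, was the only mitochondrial synthetase called higher. It measured 1.29 and 1.40 FPKM in WT and 1.89 and 2.10 FPKM in KO, 1.49-fold (log2 change 0.35 ± 0.097, adjusted p = 0.0146), from 345 and 367 reads in WT and 540 and 601 reads in KO. The call was lost without WT replicate 1 (adjusted p = 0.0679) and with DHODH KO replicate 2 left out (0.0587), so that 0 mitochondrial synthetases were called higher by limma-trend in either case, over a range from 0.00097 to 0.0679. In mitochondria this enzyme also charges the tRNA for glutamine with glutamate, which the GatCAB enzyme then converts to glutamine.

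The other mitochondrial synthetases were not called. Wars2, for tryptophan, measured 3.10 and 2.78 FPKM in WT and 2.44 and 2.40 FPKM in KO (adjusted p = 0.0744), and Rars2, for arginine, 11.8 and 11.4 FPKM in WT and 10.9 and 10.2 FPKM in KO (adjusted p = 0.0962), both without overlap. Lars2, for leucine, measured 18.8 and 19.7 FPKM in WT and 14.2 and 18.9 FPKM in KO, so DHODH KO replicate 1 was low and DHODH KO replicate 2 fell within the WT range (log2 change -0.22, adjusted p = 0.126). Without DHODH KO replicate 2, Lars2 was called with a log2 change of -0.41 (adjusted p = 0.00036), and with the replicate number as a block it was called as well (adjusted p = 0.0436; range 0.00036 to 0.722). Hars2, for histidine, measured 7.07 and 5.75 FPKM in WT and 5.82 and 4.66 FPKM in KO. Its groups overlapped (adjusted p = 0.101), and it was called without WT replicate 2 (adjusted p = 0.0218), with DHODH KO replicate 1 left out (0.0267) and with the replicate block (0.0151), over a range from 0.0151 to 0.426. Aars2, Mars2, Nars2, Pars2, Tars2 and Vars2 had log2 changes between -0.08 and 0.09 and adjusted p-values from 0.212 to 0.989. The summed level of the 17 mitochondrial synthetases was 149 and 145 FPKM in WT and 118 and 123 FPKM in KO, a KO mean of 82.1% of the WT mean.

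Setting the cytosolic enzyme beside the mitochondrial enzyme for the same amino acid gave 14 pairs, without the fused Eprs, Tarsl2 and the phenylalanine genes. By limma-trend as described 0 pairs had both partners higher and 0 both lower. That zero depends on the setting, since both partners were lower in 2 pairs after median-ratio scaling or with the replicate block, in 3 with voom, and in 1 without the trend or without WT replicate 2, DHODH KO replicate 1 or DHODH KO replicate 2. In 3 pairs, those for serine and tyrosine among them, the cytosolic gene rose while the mitochondrial gene fell. In 6 pairs, for arginine, asparagine, histidine, leucine, methionine and tryptophan, the cytosolic gene fell and its partner was not called. The alanine and threonine pairs had a riser in the cytosol and a partner not called, the cysteine and isoleucine pairs a mitochondrial gene that fell and a cytosolic gene not called, and neither valine gene was called. The cytosolic change was the higher of the pair in 7 of 14 pairs. Outside these pairs, Eprs fell (log2 change -0.36), while Ears2, for glutamate, was called higher (0.35), a call that depended on the setting. Pars2, for proline, was not called (0.09). Taken singly, 35.6% of all genes rose and 29.1% fell, and the pair counts were not compared with pairs of other genes. Differences between partners were not tested.

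The Sars level was 16.2 and 19.8 times that of Sars2 in WT and 44.7 and 40.0 times in KO. The ratio of Iars to Iars2 was 3.53 and 3.43 in WT and 7.70 and 7.15 in KO. For Yars and Yars2 it was 1.97 and 2.39 in WT and 4.13 and 3.97 in KO. In each of these pairs both KO ratios exceeded both WT ratios. In the methionine pair the ratio went from 4.43 and 4.94 in WT to 3.30 and 3.48 in KO.

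**Figure D3:**
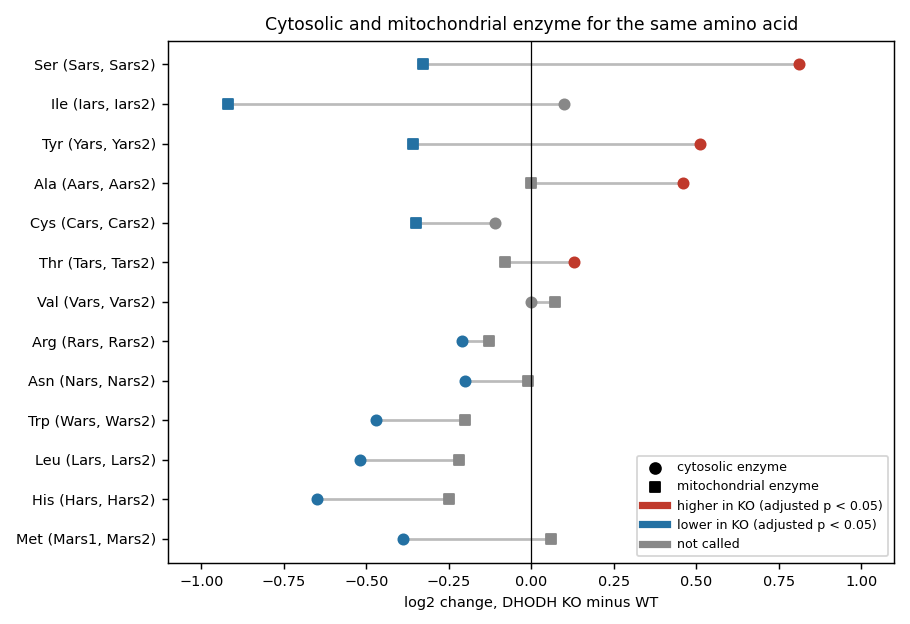
Log2 change (KO minus WT) of the cytosolic (circle) and mitochondrial (square) synthetase gene for each of 13 amino acids, joined by a line and ordered by the difference between them; red is called higher, blue called lower and grey not called. Among the pairs drawn, serine shows the widest split, 0.81 against -0.33, and methionine the widest in the other direction, -0.39 against 0.06. The fused enzyme Eprs (-0.36) and its mitochondrial counterparts Ears2 (0.35) and Pars2 (0.09) are not drawn.

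Of the 6 enzymes that act on charged tRNA 1 fell and 2 rose, so 50% were called, 33.3% up and 16.7% down. Of all genes 64.7% were called, 35.6% up and 29.1% down. Gatb, Gatc and Qrsl1 encode the GatCAB amidotransferase, which completes glutaminyl-tRNA in mitochondria. Gatb measured 3.10 and 2.67 FPKM in WT and 1.11 and 1.56 FPKM in KO, 46.2% of WT (log2 change -0.74 ± 0.122, adjusted p = 0.00145), from 423 and 357 reads in WT and 161 and 227 reads in KO. Gatc measured 15.8 and 16.7 FPKM in WT and 17.9 and 18.2 FPKM in KO (log2 change 0.14 ± 0.051, adjusted p = 0.0386). The Gatc call was lost without any 1 of the 4 libraries (adjusted p = 0.224 and 0.0566 without WT replicates 1 and 2, and 0.0711 and 0.0981 without DHODH KO replicates 1 and 2), with no filter (0.0614), without the trend (0.0551), after median-ratio scaling (0.142) and with voom (0.358), over a range from 0.0349. Qrsl1 measured 6.11 and 6.72 FPKM in WT and 6.29 and 5.81 FPKM in KO, so its groups overlapped.

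Of the enzymes that make selenocysteine on its tRNA, Sepsecs measured 3.21 and 3.34 FPKM in WT and 4.05 and 3.88 FPKM in KO (log2 change 0.22 ± 0.076, adjusted p = 0.0392). Its call was lost without any 1 library (adjusted p = 0.152 and 0.0917 without WT replicates 1 and 2, 0.135 and 0.0701 without DHODH KO replicates 1 and 2), with no filter (0.0800) and after median-ratio scaling (0.0822), over a range from 0.0145. Pstk, the kinase that acts before it, measured 6.81 and 6.92 FPKM in WT and 7.96 and 6.89 FPKM in KO and was not called. Mtfmt, which formylates the initiator methionyl-tRNA of mitochondria, measured 6.33 and 6.39 FPKM in WT and 6.06 and 5.69 FPKM in KO and was not called (adjusted p = 0.223).

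Genes around tRNA charging that are not in the annotated pathway were read from lists chosen for this comparison. Of 6 elongation factor genes that deliver charged tRNA or recharge the carrier, 5 fell and 0 rose by limma-trend, with a median log2 change of -0.37, where 29.1% of all genes fell and their median was 0.04. Tufm, the mitochondrial carrier EF-Tu, went from 76.4 and 80.8 FPKM to 54.4 and 55.9 FPKM (log2 change -0.50, adjusted p = 6.1e-05). Tsfm, its nucleotide exchange factor, went from 19.3 and 17.7 FPKM to 10.96 and 12.0 FPKM (log2 change -0.65, adjusted p = 0.00015). The cytosolic exchange factor subunits Eef1g and Eef1d had log2 changes of -0.46 and -0.28 (adjusted p = 4.8e-05 and 0.0006). Eef1b2, another subunit, had one of -0.17 (adjusted p = 0.0297), a call lost without WT replicate 2 (-0.12, adjusted p = 0.143), with DHODH KO replicate 1 left out (-0.10, 0.0991), with no filter (0.158) and without the trend (0.0872), over a range from 0.00084. Eef1a1, the cytosolic carrier, was at 7211 and 7267 FPKM in WT and 6951 and 6999 FPKM in KO and was not called (adjusted p = 0.180), but it passed after rescaling to TPM (0.0401) and after median-ratio scaling (0.0135), over a range to 0.672. Copies of Eef1a1 elsewhere in the genome could share its reads.

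Of 13 genes of tRNA maturation and export, 3 rose (23.1%) and 7 fell (53.8%), so 76.9% were called. Of all genes 35.6% rose and 29.1% fell, with 64.7% called. Elac2, the endonuclease that trims the 3′ end of tRNA precursors in nucleus and mitochondria, went from 23.9 and 23.7 FPKM to 14.5 and 13.9 FPKM (log2 change -0.70, adjusted p = 2.5e-05). Prorp, the catalytic subunit of mitochondrial RNase P, fell by 0.55, whereas its partner subunits Trmt10c and Hsd17b10 rose by 0.35 and 0.25, all on the log2 scale. Trnt1, which adds the CCA end that a synthetase needs, fell by 0.28, and the tRNA ligase gene Rtcb by 0.36. Among the tRNA splicing endonuclease subunits, Tsen15 rose by 0.73, while Tsen34 fell by 0.15 (adjusted p = 0.0375), a call lost without WT replicate 2 (log2 change -0.10, adjusted p = 0.256), with DHODH KO replicate 2 left out (0.0894), with no filter (0.0922) and without the trend (0.0711), over a range from 0.0122. Xpo5, an exporter of RNA, fell by 0.23. Xpot, the tRNA exporter, stood at 33.1 and 32.2 FPKM in WT and 33.0 and 32.2 FPKM in KO, and Elac1 and Tsen54 were not called either. Elac1 passed with voom on the recovered reads of all libraries (log2 change -0.44, adjusted p = 0.0446). It passed as well without DHODH KO replicate 2, where its log2 change was -0.40.

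Of 4 editing and deacylation factors 2 fell and 0 rose by limma-trend, where 29.1% of all genes fell. Dtd1, which removes D-amino acids from tRNA, went from 10.6 and 12.0 FPKM to 7.51 and 7.82 FPKM (log2 change -0.50, adjusted p = 0.00077). Dtd2, a related deacylase, fell by 0.40 (adjusted p = 0.00870), a call lost without WT replicate 2 (0.0537) and with no filter (0.0648), over a range from 0.00193. Aarsd1 and Prorsd1, editing proteins related to synthetases, were not called.

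Atf4 RNA went from 134 and 137 FPKM to 203 and 208 FPKM, 1.51-fold (log2 change 0.59 ± 0.034, adjusted p = 1.1e-05). Of 8 genes of the GCN2 and ATF4 response 6 rose and 0 fell by limma-trend, namely Atf4, Ddit3, Trib3, Chac1, Sesn2 and Asns, where 35.6% of all genes rose. Asns, the asparagine synthetase gene, went from 55.6 and 59.8 FPKM to 82.6 and 81.6 FPKM, and the pseudokinase gene Trib3 from 6.44 and 5.73 FPKM to 16.3 and 14.1 FPKM. Ddit3, for the stress-induced transcription factor CHOP, went from 4.75 and 4.58 FPKM to 33.7 and 33.4 FPKM (log2 change 2.61, adjusted p = 3.7e-07). Chac1, a glutathione-degrading enzyme, rose 2.50-fold, and Sesn2 rose 1.59-fold (adjusted p = 0.00499), a call lost with no filter (0.0573), over a range from 0.0006. Eif2ak4, which encodes GCN2, and Gcn1, its activator, were not called (adjusted p = 0.282 and 0.171), though Gcn1 passed without DHODH KO replicate 2 (0.0226; range 0.0226 to 0.646). These genes moved beside Sars, Yars, Aars, Dars and Tars, while 11 cytosolic synthetases fell in the same libraries. Their part in the synthetase changes was not tested.

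**Figure D4:**
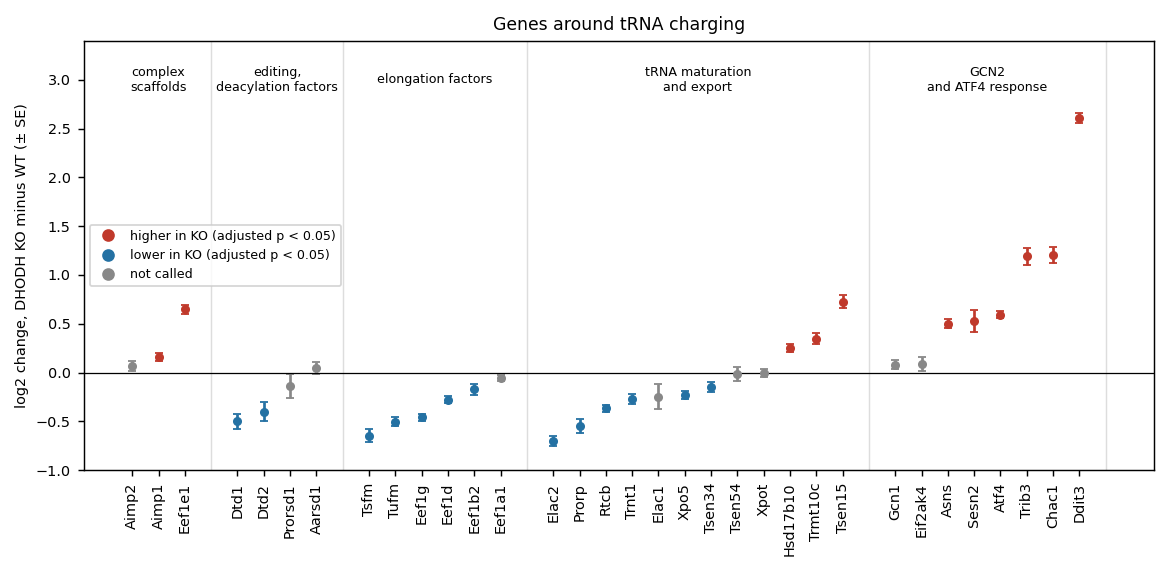
Log2 change (KO minus WT, ± SE) of genes around tRNA charging in 5 lists; red is called higher, blue called lower and grey not called. The elongation factors lie below 0, between -0.65 and -0.05, and the GCN2 and ATF4 genes lie above 0, up to 2.61 for Ddit3.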

How the data were processed

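RNA-seq of 2 WT and 2 DHODH KO 4T1 samples was deposited by the authors as a table of FPKM. The tools fastp and HTSeq and the build GRCm39 are named per the submitters' processing notes. The sources used here do not name the aligner, annotation, gene lengths or strand setting. Reads of overlapping or antisense genes therefore cannot be told apart. Columns were matched to samples by name. Whole reads were recovered for 16618 genes (99.5%), all 44 members included, by searching up to 40000 reads with a tolerance of 0.002 reads. The smallest numbers that matched were taken, and the sums cover these genes only. Genes with a mean of at least 1 FPKM (10170) were fitted with limma-trend (limma 3.58.1, R 4.3.3) on log2(FPKM + 1), two-sided, KO against WT, without covariates, Benjamini-Hochberg adjusted p under 0.05. The fit had 2 residual and 5.15 prior degrees of freedom. A run on simulated data had far fewer changed genes than were called here, so it gives no error rate for these calls. Python 3.11.15, pandas 2.3.3, NumPy 2.4.6 and Matplotlib 3.10.9 made tables and figures.

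The members, lists, motifs and alternatives were chosen with earlier results of these data known. Members were named; of related lists, counts and the genes past the threshold were given. Counts and sums cover every gene of a list, but 2 genes are not reported here. The 12 alternatives were a pseudocount of 0.1, no filter, a filter at a mean of 5 FPKM, rescaling to TPM, median-ratio scaling, no limma trend, a replicate block, voom on the recovered reads, and leaving out each library. Symbols are those of the table (Aars is now Aars1, and so on). Promoters are from RefSeq, GRCm38.p6, a build other than the authors'. Transcript lengths are from GENCODE M21, matched by Entrez identifier for all 44 members.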

Additional observations from a re-analysis of the deposited data

How the results depend on the processing

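Over 12 alternatives, 19 of the 25 called members kept their call wherever they were tested; Tars, Kars, Sars2, Ears2, Gatc and Sepsecs lost theirs in at least 1, as given beside them. Cytosolic synthetases called stayed between 14 and 17, with 4 to 6 higher and 10 or 11 lower. Mitochondrial synthetases called lay between 4 and 9. Voom on the recovered reads gave 8 mitochondrial genes lower, with Wars2, Lars2 and Hars2 added (adjusted p = 0.0113, 0.0270 and 0.0483). The number called higher was 0 with a filter at a mean of 5 FPKM, where Ears2 is not tested, and 0 to 1 on leaving out 1 library. Wars2 was also called after median-ratio scaling (0.0421) and without the trend (0.0296), and Rars2 after median-ratio scaling (0.0355).

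Signs turned only in genes not called. After median-ratio scaling the log2 change was -0.038 for Aars2, -0.047 for Vars and -0.005 for Aarsd1, and with voom it was -0.014 for Aars2 and -0.012 for Vars. On leaving out 1 library it ran from -0.034 to 0.037 for Aars2, -0.058 to 0.055 for Farsb, -0.009 to 0.123 for Mars2, -0.031 to 0.010 for Nars2, -0.009 to 0.018 for Vars, -0.036 to 0.126 for Aarsd1, -0.298 to 0.016 for Prorsd1, -0.022 to 0.017 for Xpot and -0.043 to 0.011 for Tsen54. The cause was not tested.

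Median-ratio scaling changed the split over all genes from 3618 higher and 2958 lower to 3184 and 3373, and moved the median of all genes from 0.039 to -0.008. Same-numbered libraries did not deviate together (correlation over genes 0.0463), so the numbers are not taken as pairs; with the replicate number as a block 6682 genes were called against 6576, with 7 mitochondrial genes lower in place of 5. With 2 libraries per genotype the spread rests largely on the variance shared across genes.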
